A study of Homo sapiens with 12 samples.

Results

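The expression of 55 genes of the p53 response and of programmed cell death was examined in U251 cells, an established human glioblastoma line, after knock-down of the transcription factors ETV6 and NFKB1. The genes were taken from a list of names. Each was represented by its single-gene Affymetrix probe set with the highest mean over the 12 arrays. Of the 55 genes, 49 had such a probe set among the 10346 genes measured, and 45 passed the level filter that left 7760 genes for testing. The 6 genes BTG2, PLK3, RIPK1, BIK, BBC3 and BIRC3 were not analysed here. MDM2, SESN1, BCL2 and APAF1 lay under the filter and are described apart.

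The arrays formed 4 groups of 3. The first was transfected with ETV6 siRNA and NFKB1 siRNA together (double siRNA), the second with ETV6 siRNA alone and the third with NFKB1 siRNA alone. The fourth received control siRNA, a duplex matching no known human transcript. All were ON-TARGETplus SMARTpool reagents delivered with DharmaFECT 2, each siRNA at 50 nM. The labels do not say whether the total amount of siRNA was matched between the double and the single transfections, so a second siRNA and a larger amount of siRNA cannot be told apart. Nor do they state that replicates were grown and transfected separately, and the p-values below measure the spread between these samples. In bulk RNA, fewer cells of a kind and less RNA per cell cannot be told apart.

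As background, p53 is a transcription factor that is held down by MDM2 and MDM4 and, once active, induces genes for cell cycle arrest, DNA repair, death receptors and mitochondrial death factors. At the mitochondrion, BH3-only proteins release BAX and BAK1 from BCL2-like proteins, cytochrome c escapes and assembles with APAF1, and caspases are activated. Inhibitor of apoptosis proteins (IAPs) hold caspases back, and several death genes are also controlled by NF-kappaB, whose p105 and p50 subunits NFKB1 encodes. ETV6 is a repressor of the ETS family.

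ETV6 had 22.6% of its control level with ETV6 siRNA, 35.1% with double siRNA and 88.6% with NFKB1 siRNA. The last value did not pass the test (limma adjusted p = 0.206). Without control replicate 3 it was 79.9% and was called (limma adjusted p = 0.00329). NFKB1, whose mean of log2 7.07 lay under the level filter at 7.54, had 58.8% of its control level with double siRNA and 60.3% with NFKB1 siRNA. Its NFKB1 siRNA arrays measured log2 6.95, 6.75 and 6.05, and without the third it had 72.6% of control, still called. With ETV6 siRNA alone it measured 141.2% of control, which did not pass the test (limma adjusted p = 0.104) but was called without that same NFKB1 siRNA array. Of 12 astroglial and mesenchymal glioma markers 9 were measured, all above the filter, with GFAP at log2 12.82 to 13.59 over the arrays. Their summed level was log2 15.90 to 15.97 with double siRNA, 15.95 to 15.98 with ETV6 siRNA, 15.96 to 16.03 with NFKB1 siRNA and 16.01 to 16.10 with control siRNA. The sum is weighted to the brightest markers, and single markers differed by more, for which no test is given here. NES averaged log2 10.17 ± 0.02 with double siRNA and 11.33 ± 0.19 with control siRNA, and CHI3L1 averaged 8.88 ± 0.17 with ETV6 siRNA and 8.20 ± 0.26 with control siRNA (SD, n = 3 each). GFAP averaged 12.97 ± 0.14 with double siRNA and 13.51 ± 0.08 with control siRNA. No immune marker of 5 was measured, and of 13 endothelial, epithelial and neuronal markers 5 were measured and 1, KRT18, passed the filter. The double siRNA arrays stood apart in technical values. Their medians over all probe sets were log2 8.34 to 8.38, against 8.08 to 8.27 on the other arrays. Their poly-A spike-ins averaged log2 7.97 to 8.05, against 8.37 to 9.35 on the other arrays. Their ACTB 3' probe set exceeded the 5' one by log2 2.05 to 2.16, against 1.52 to 1.91 on the other arrays. The same difference for GAPDH did not set them apart, at 0.46 to 0.51 with double siRNA and 0.37 to 0.54 on the other arrays. One control array, replicate 3, lay nearer to the double siRNA arrays than the other controls did. Outside double siRNA it had the highest ACTB difference (1.91) and the highest median (8.27). Its poly-A mean of 8.53 was the lowest of the controls but not of all those arrays. For 15 of the 17 members that rose with double siRNA (88.2%), and for 83.5% of all genes that rose, it was the highest control array. For 16 of the 22 that fell (72.7%), and for 76.3% of all genes that fell, it was the lowest. The part of these values in the results below was not tested.

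The upstream sequences of 6 members are shown because of their genes' levels or letters. The 3 measured IAP genes among the members fell with NFKB1 siRNA and rose with double siRNA, and ZMAT3 did so too. So did BNIP2, MAP3K5, CYCS and MCL1, and TP53INP1 with no test, whose windows are not shown. PLK2 had the largest fall with NFKB1 siRNA, and MDM4 was the 1 member whose window held the ETS octamer. Each run is the 250 bases before the transcription start, 5' to 3' on the gene's strand, from RefSeq on GRCh38.p14. Capitals mark a match, on either strand, to the ETS octamer CCGGAAGT, to a kappaB decamer or to a p53 half-site decamer, and no match overlapped one of another motif. The windows lie at chr2:32356773-32357022 (plus strand) for BIRC6, chr11:102346964-102347213 (plus) for BIRC2, chrX:123859458-123859707 (plus) for XIAP, chr3:179071810-179072059 (minus) for ZMAT3, chr1:204516156-204516405 (plus) for MDM4 and chr5:58460087-58460336 (minus) for PLK2.
BIRC6: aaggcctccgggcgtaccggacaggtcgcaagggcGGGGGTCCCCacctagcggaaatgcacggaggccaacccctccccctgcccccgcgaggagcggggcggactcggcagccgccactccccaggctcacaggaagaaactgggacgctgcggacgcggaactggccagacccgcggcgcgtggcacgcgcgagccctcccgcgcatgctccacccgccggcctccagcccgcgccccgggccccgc
BIRC2: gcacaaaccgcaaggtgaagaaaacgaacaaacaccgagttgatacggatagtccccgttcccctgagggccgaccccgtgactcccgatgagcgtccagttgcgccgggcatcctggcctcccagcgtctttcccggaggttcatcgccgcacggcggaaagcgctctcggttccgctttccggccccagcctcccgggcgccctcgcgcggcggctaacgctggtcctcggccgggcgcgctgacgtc
XIAP: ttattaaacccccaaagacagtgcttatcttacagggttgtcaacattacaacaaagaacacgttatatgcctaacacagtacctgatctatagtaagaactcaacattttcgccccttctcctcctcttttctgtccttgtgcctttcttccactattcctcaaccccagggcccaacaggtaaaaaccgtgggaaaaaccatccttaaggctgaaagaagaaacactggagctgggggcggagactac
ZMAT3: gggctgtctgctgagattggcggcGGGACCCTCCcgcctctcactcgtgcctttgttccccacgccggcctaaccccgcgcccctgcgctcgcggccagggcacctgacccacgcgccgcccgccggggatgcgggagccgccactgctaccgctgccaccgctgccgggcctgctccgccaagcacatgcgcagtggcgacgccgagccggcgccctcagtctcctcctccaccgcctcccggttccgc
MDM4: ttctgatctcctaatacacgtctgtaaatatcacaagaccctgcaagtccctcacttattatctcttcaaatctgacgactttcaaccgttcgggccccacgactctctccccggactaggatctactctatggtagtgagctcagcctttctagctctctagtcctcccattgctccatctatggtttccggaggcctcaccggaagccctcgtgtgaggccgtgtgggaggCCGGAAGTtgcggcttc
PLK2: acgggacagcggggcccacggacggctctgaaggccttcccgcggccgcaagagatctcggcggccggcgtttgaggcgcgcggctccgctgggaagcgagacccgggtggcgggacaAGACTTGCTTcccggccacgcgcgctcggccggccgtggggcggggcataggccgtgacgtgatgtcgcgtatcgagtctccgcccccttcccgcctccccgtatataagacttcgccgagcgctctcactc
BIRC6 and ZMAT3 each held 1 kappaB match, 215 to 206 and 226 to 217 bases before the start. MDM4 held the ETS octamer 17 to 10 bases before the start, and PLK2 held a p53 half-site 132 to 123 bases before it. The windows of BIRC2 and XIAP held none of these letters. Neither did those of BNIP2, MAP3K5 and CYCS, and MCL1 and TP53INP1 were not found in the RefSeq table. Over the 47 members found in the RefSeq table, 4 held a kappaB match (8.51%), against 9.57% of 27305 promoters. A p53 half-site was present in 3 (6.38%), against 5.53% of all promoters, and the ETS octamer in 1 (2.13%), against 3.64%. A match here is a run of letters and not a bound site. The members' windows had a median GC content of 67.2%, against 58% for all promoters.

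Double siRNA moved most of these genes, and in both directions. With an adjusted p under 0.05 as the threshold, 39 of 45 were called against control siRNA, 17 higher and 22 lower (86.7%), while 80.9% of all genes tested were called in that comparison (31.9% higher, 49% lower). The members' share was thus near that of all genes, and the median change was -0.01 for the members and -0.13 for all genes on the log2 scale. Among the called members 10 were higher and 7 lower by over 1.5-fold, against 16.5% and 13.9% of all genes. The 10 were RRM2B, PMAIP1, XIAP, FAS, BIRC2, TP53INP1, MDM4, ZMAT3, CCNG2 and BNIP2. The 7 were BAX, BID, HTRA2, BCL2L1, BAD, TNFRSF10B and BAK1. The 3 arrays of double siRNA lay all above the controls for 19 members and all below for 22, against 33.5% and 50.8% of all genes. MDM4, TP53INP1 and FAS passed the level filter only through their double siRNA arrays (mean of the other 9 arrays 7.35, 7.26 and 7.24 against a filter at 7.54), so that they could be tested only because they were high there. Their values are therefore given with no test. Where counts, lists or figures of calls below include them, their calls are a description. Without them 36 of 42 members were called, 14 higher and 22 lower, and 7 were higher by over 1.5-fold.

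NFKB1 siRNA alone gave 17 calls, 5 higher and 12 lower, beside 40.6% of all genes tested (15.5% higher, 25.1% lower). As a share, 37.8% of the members were called. The 3 arrays lay all above the controls for 7 members and all below for 14, against 19.9% and 27.9% of all genes. The balance depended on the scaling: with array medians made equal 9 of 20 called members were higher, and with quantile normalization 9 of 21, against 5 of 17 as deposited. ETV6 siRNA alone gave 5 calls, 3 higher and 2 lower, or 11.1%, beside 10.7% of all genes (4.38% higher, 6.28% lower). Here the arrays lay all above the controls for 6 members and all below for 6, against 11.8% and 12.7% of all genes. None of the 5 calls remained without ETV6 siRNA replicate 1, or when only the groups compared were fitted. Both shares were near those of all genes. Without control replicate 3, CCNG2 (0.24) and RRM2B (0.33) were called higher with ETV6 siRNA and MAP3K5 (-0.20) and BID (-0.32) lower. CASP9, GADD45A and BIRC6 were then not called. FAS changed by 0.31 there, with no test. The median member changed by -0.04 with NFKB1 siRNA (0.01 over all genes) and by -0.03 with ETV6 siRNA (0.00 over all genes). The map of changes by role shows where the calls fell.

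**Figure D1:**
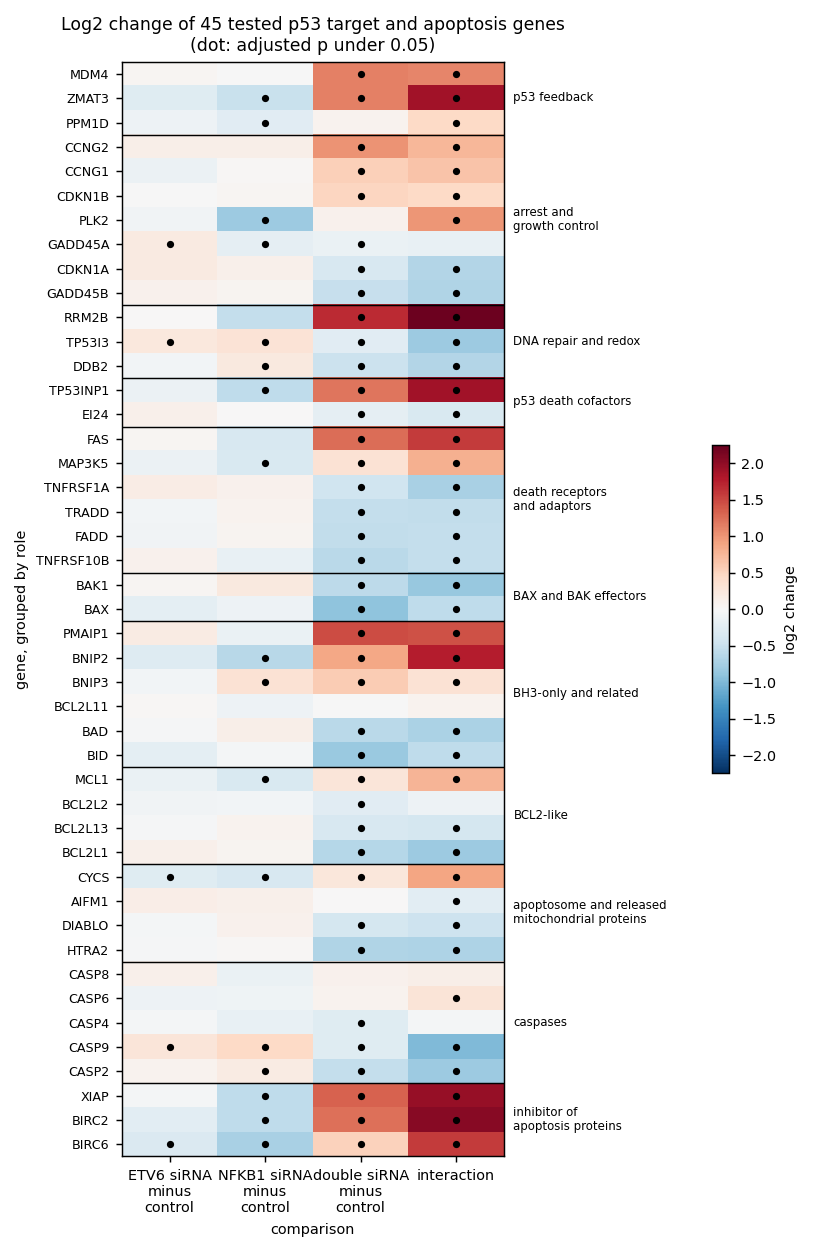
Log2 change of the 45 tested genes, in rows grouped by role, for ETV6, NFKB1 and double siRNA minus control siRNA and for the interaction, as colour (red higher, blue lower). Dots mark an adjusted p under 0.05 and number 5, 17, 39 and 40 in the 4 columns. MDM4, TP53INP1 and FAS passed the level filter only through double siRNA, so their dots are a description. The 3 IAP genes at the bottom are blue with NFKB1 siRNA and red with double siRNA.

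Among the regulators of p53, MDM4, which binds and represses p53, and ZMAT3, an RNA-binding zinc finger protein induced by p53, were higher with double siRNA. MDM4 measured log2 8.59, 8.40 and 8.44 with double siRNA, 7.38, 7.31 and 7.44 with ETV6 siRNA, 7.39, 7.25 and 7.35 with NFKB1 siRNA and 7.25, 7.23 and 7.53 with control siRNA. The double siRNA arrays stood alone, and the other 9 arrays overlapped: MDM4 was 1.14 ± 0.08 higher than control (SE, 2.2-fold). The changes were 0.04 with ETV6 siRNA and -0.00 with NFKB1 siRNA. ZMAT3 measured 10.01, 9.96 and 9.94 with double siRNA, 8.56, 8.69 and 8.46 with ETV6 siRNA, 8.50, 8.26 and 8.29 with NFKB1 siRNA and 8.44, 8.82 and 9.26 with control siRNA. It rose by 1.13 ± 0.16 with double siRNA (adjusted p = 4.83e-05) and fell by 0.49 ± 0.16 with NFKB1 siRNA (adjusted p = 0.0273). Without control replicate 3 the change with NFKB1 siRNA was -0.28 and was no longer called. PPM1D, the phosphatase that switches off p53 and its kinases, fell by 0.26 ± 0.05 with NFKB1 siRNA (adjusted p = 0.00303), and with double siRNA its change was 0.07 (95% interval -0.05 to 0.19), not called. Without control replicate 3 the double siRNA change was 0.13 and was called.

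MDM2, the main ubiquitin ligase of p53 and itself a p53 target, lay under the level filter. Its log2 levels were 8.69, 8.72 and 8.81 with double siRNA, 6.79, 6.94 and 6.72 with ETV6 siRNA, 6.71, 6.51 and 6.33 with NFKB1 siRNA and 6.19, 6.34 and 7.31 with control siRNA. All 3 double siRNA arrays were higher than the other 9, of which control replicate 3 was the highest. In a fit with no filter the difference between double and control siRNA was 2.13 ± 0.23 (4.37-fold, adjusted p = 1.55e-05). The other probe sets of MDM2 disagreed: one with a mean level of log2 6.41 gave 1.98, and one with a mean level of log2 6.68 gave -0.03. The differences with ETV6 siRNA (0.20) and NFKB1 siRNA (-0.10) were not called.

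Genes of arrest and growth control split. CCNG2, a cyclin linked to growth arrest, measured log2 9.62, 9.62 and 9.56 with double siRNA, against 8.39, 8.56 and 8.82 with control siRNA, and rose by 1.01 ± 0.09 (adjusted p = 2.62e-06). CCNG1, a cyclin induced by p53, rose by 0.53 ± 0.10, and CDKN1B, an inhibitor of cyclin-dependent kinases, by 0.48 ± 0.06. In contrast CDKN1A, the best known p53 target and also a kinase inhibitor, measured 9.13, 9.25 and 9.32 with double siRNA, against 9.64, 9.69 and 9.43 with control siRNA. The groups did not overlap, and CDKN1A fell by 0.35 ± 0.10 (adjusted p = 0.00573). The stress sensor GADD45B fell by 0.52 ± 0.08. For GADD45A, its relative, the fall of 0.15 was close to the median of all genes (-0.13). The call on GADD45A was lost without control replicate 2 and without double siRNA replicate 3.

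PLK2, a polo-like kinase induced by p53, gave the largest fall among the members with NFKB1 siRNA alone. Its log2 levels were 10.82, 10.89 and 10.86 with double siRNA, 10.65, 10.74 and 10.66 with ETV6 siRNA, 9.89, 9.95 and 9.96 with NFKB1 siRNA and 10.75, 10.81 and 10.72 with control siRNA. The 3 NFKB1 siRNA arrays lay below every other array and the remaining groups lay close together. The fall was 0.82 ± 0.05 (1.77-fold, adjusted p = 1.05e-06). With double siRNA the change was 0.10 (95% interval -0.00 to 0.20, adjusted p = 0.0722), not called, and with ETV6 siRNA it was -0.08. GADD45A fell by 0.20 ± 0.05 with NFKB1 siRNA (adjusted p = 0.0105) and rose by 0.21 ± 0.05 with ETV6 siRNA (adjusted p = 0.0259). The ETV6 siRNA call was lost in 5 of 23 alternative analyses. The NFKB1 siRNA call was lost when every array was shifted to the same median. SESN1, a p53-induced stress protein under the filter, measured 7.56, 7.62 and 7.58 with double siRNA, against 6.36, 6.59 and 6.72 with control siRNA, a difference of 1.03 ± 0.13 with no filter.

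RRM2B, the p53-inducible small subunit of ribonucleotide reductase, had the highest change of all 45 members. Its log2 levels were 9.43, 9.44 and 9.46 with double siRNA, 7.64, 7.98 and 7.70 with ETV6 siRNA, 7.29, 7.31 and 7.11 with NFKB1 siRNA and 7.50, 7.39 and 8.42 with control siRNA. The double siRNA arrays agreed closely, and control replicate 3 lay about midway between them and the other controls. RRM2B rose by 1.68 ± 0.21 with double siRNA (3.19-fold, adjusted p = 2.39e-05). Without control replicate 3 the rise was 2.00. With NFKB1 siRNA it changed by -0.53 (95% interval -1.0 to -0.07), which missed the threshold after adjustment (adjusted p = 0.0623), and was -0.21 without control replicate 3. With ETV6 siRNA it changed by 0.01, not called, or by 0.33 without that array, called. The other repair and redox genes moved the opposite way. DDB2, which recognises ultraviolet damage, fell by 0.48 ± 0.08 with double siRNA and rose by 0.23 ± 0.08 with NFKB1 siRNA (adjusted p = 0.0335), a call lost without control replicate 3. TP53I3, a p53-induced quinone oxidoreductase, measured 8.69, 8.70 and 8.56 with double siRNA, 9.25, 9.09 and 9.14 with ETV6 siRNA, 9.21, 9.21 and 9.24 with NFKB1 siRNA and 8.96, 8.89 and 8.89 with control siRNA. It rose with ETV6 siRNA by 0.24 ± 0.05 (adjusted p = 0.0146) and with NFKB1 siRNA by 0.30 ± 0.05 (adjusted p = 0.00126), and fell with double siRNA by 0.26 ± 0.05.

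TP53INP1, a stress-induced nuclear partner of p53, measured log2 8.71, 8.73 and 8.62 with double siRNA, 7.40, 7.43 and 7.27 with ETV6 siRNA, 6.88, 7.06 and 6.82 with NFKB1 siRNA and 7.12, 7.46 and 7.89 with control siRNA. It was 1.20 ± 0.15 higher with double siRNA (2.29-fold). With NFKB1 siRNA alone it was 0.57 ± 0.15 lower, or 0.37 lower without control replicate 3. EI24, a p53-induced protein of the endoplasmic reticulum, fell by 0.21 ± 0.06 with double siRNA.

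**Figure D2:**
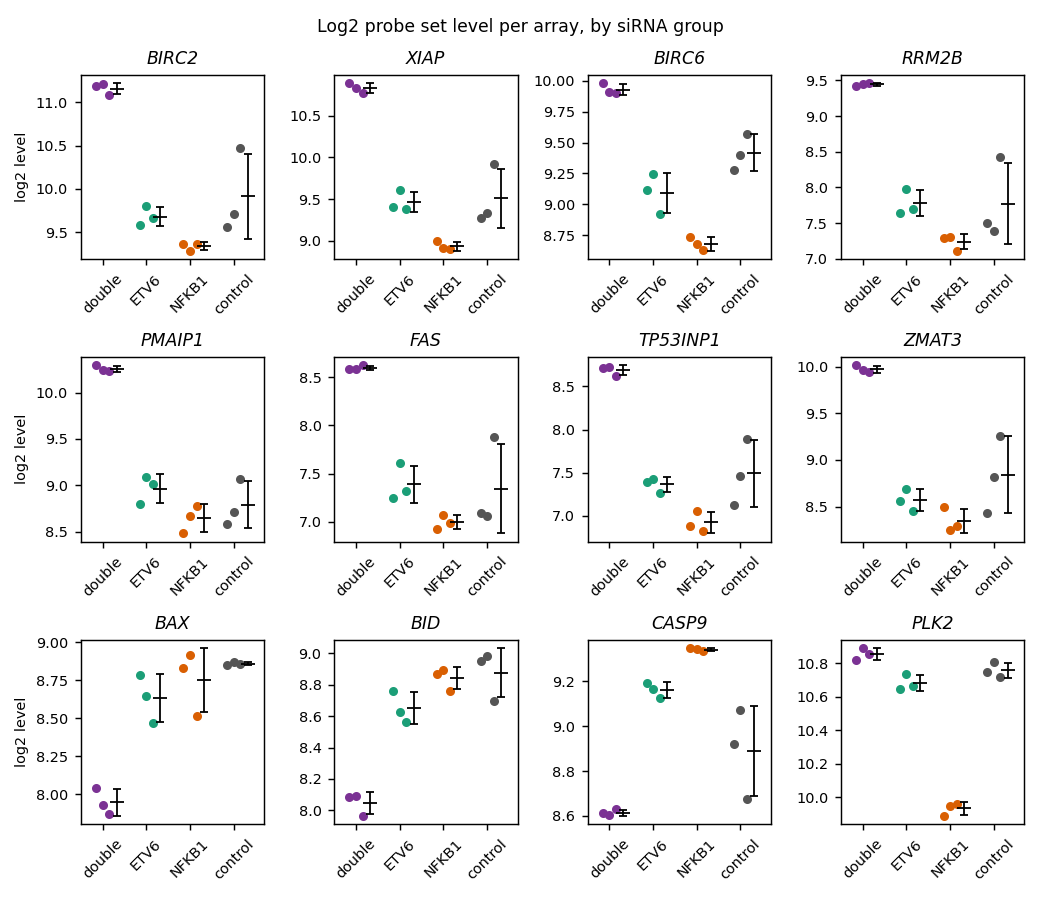
Log2 probe set level on each of the 12 arrays for 12 members, by group (double, ETV6, NFKB1 and control siRNA). Points are arrays and bars the mean and SD of 3, and BIRC2, XIAP, RRM2B and FAS show control replicate 3 above the other controls and below the double siRNA arrays.

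The death receptors did not move together. FAS, the receptor for FAS ligand and a p53 target, measured log2 8.58, 8.59 and 8.62 with double siRNA, 7.24, 7.60 and 7.31 with ETV6 siRNA, 6.92, 7.06 and 6.99 with NFKB1 siRNA and 7.09, 7.06 and 7.88 with control siRNA. The double siRNA arrays lay above all others, and FAS was 1.25 ± 0.18 higher than control (2.39-fold). Its 3 other probe sets gave 1.17, 1.43 and 1.49. TNFRSF10B, a receptor for the ligand TRAIL and likewise a p53 target, measured 9.08, 9.18 and 9.07 with double siRNA, against 9.76, 9.74 and 9.65 with control siRNA, and fell by 0.61 ± 0.07 (adjusted p = 1.32e-05). The receptor for tumour necrosis factor TNFRSF1A fell by 0.46 ± 0.09, and the adaptors FADD and TRADD by 0.55 ± 0.06 and 0.53 ± 0.07. MAP3K5, a stress kinase upstream of JNK and p38, fell by 0.34 ± 0.06 with NFKB1 siRNA (adjusted p = 0.00118) and rose by 0.33 ± 0.06 with double siRNA. With either single siRNA none of the 4 receptors and adaptors that fell in double siRNA was called. FAS changed by 0.04 with ETV6 siRNA, or by 0.31 without control replicate 3, with no test. With array weights FADD and TRADD with ETV6 siRNA and TNFRSF10B with NFKB1 siRNA were called, the last also without ETV6 siRNA replicate 1.

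Both pore-forming effectors fell with double siRNA. BAX measured log2 8.04, 7.93 and 7.87 with double siRNA, 8.78, 8.65 and 8.47 with ETV6 siRNA, 8.83, 8.91 and 8.52 with NFKB1 siRNA and 8.85, 8.87 and 8.86 with control siRNA. It fell by 0.91 ± 0.10 (1.88-fold, adjusted p = 1.1e-05), the lowest change of all members, and its second probe set gave -0.94. BAK1 measured 7.39, 7.59 and 7.62 with double siRNA, against 8.30, 8.21 and 7.86 with control siRNA, and fell by 0.59 ± 0.11 (adjusted p = 0.000378). Neither BAX nor BAK1 was called with ETV6 siRNA (-0.23 and 0.04) or NFKB1 siRNA (-0.11 and 0.22). Under both scalings, with array weights and without control replicate 1, BAK1 was called with NFKB1 siRNA. With array weights BAX was called with ETV6 siRNA.

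The 6 tested BH3-only and related genes divided in the same comparison. PMAIP1, which encodes the BH3-only protein NOXA and is a p53 target, measured log2 10.29, 10.25 and 10.23 with double siRNA, 8.79, 9.09 and 9.01 with ETV6 siRNA, 8.48, 8.67 and 8.78 with NFKB1 siRNA and 8.58, 8.71 and 9.07 with control siRNA. No double siRNA array came within 1 log2 unit of any other array. PMAIP1 rose by 1.47 ± 0.12 (2.77-fold, adjusted p = 2.17e-06), and its second probe set gave the same value. BID, which links death receptors to mitochondria, measured 8.09, 8.09 and 7.97 with double siRNA, against 8.95, 8.99 and 8.70 with control siRNA, and fell by 0.83 ± 0.08 (1.78-fold, adjusted p = 4.95e-06). BAD, a BH3-only protein controlled by growth factor signalling, fell by 0.61 ± 0.06 (adjusted p = 5.62e-06). BCL2L11, which encodes BIM, changed by -0.01 (95% interval -0.14 to 0.12) and was not called in any of the 3 comparisons with control.

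BNIP2 and BNIP3, named for their binding to BCL2-like proteins, differed under NFKB1 siRNA. BNIP2 measured log2 10.31, 10.24 and 10.19 with double siRNA, 8.93, 9.28 and 9.09 with ETV6 siRNA, 8.82, 8.81 and 8.66 with NFKB1 siRNA and 9.31, 9.18 and 9.65 with control siRNA. It fell by 0.62 ± 0.12 with NFKB1 siRNA (adjusted p = 0.00154) and rose by 0.87 ± 0.12 with double siRNA (adjusted p = 3.48e-05). BNIP3, a hypoxia-induced protein of mitochondrial clearance, measured 13.14, 13.14 and 13.17 with double siRNA, 12.44, 12.67 and 12.39 with ETV6 siRNA, 12.94, 12.96 and 12.81 with NFKB1 siRNA and 12.48, 12.60 and 12.63 with control siRNA. It rose with NFKB1 siRNA by 0.33 ± 0.07 (adjusted p = 0.00473) and with double siRNA by 0.58 ± 0.07 (adjusted p = 2.69e-05).

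Of the BCL2-like genes, BCL2L1 and MCL1, which oppose BAX and BAK1, went opposite ways with double siRNA. BCL2L1, which encodes BCL-xL, measured log2 8.68, 8.83 and 8.77 with double siRNA, against 9.55, 9.50 and 9.15 with control siRNA, and fell by 0.64 ± 0.10 (adjusted p = 8.33e-05). MCL1, a short-lived member of the family, measured 10.98, 10.93 and 10.95 with double siRNA, 10.45, 10.55 and 10.59 with ETV6 siRNA, 10.27, 10.40 and 10.36 with NFKB1 siRNA and 10.62, 10.66 and 10.77 with control siRNA. It rose by 0.27 ± 0.06 with double siRNA (adjusted p = 0.000821) and fell by 0.34 ± 0.06 with NFKB1 siRNA (adjusted p = 0.000671). BCL2L2 and BCL2L13 fell by 0.25 ± 0.07 and 0.36 ± 0.07 with double siRNA. BCL2 itself had a mean level at the 0.20th percentile of the genes measured, so that its values are near the bottom of the scale. They were 5.18, 5.41 and 5.29 with double siRNA, 5.32, 5.30 and 5.57 with ETV6 siRNA, 4.66, 4.39 and 4.30 with NFKB1 siRNA and 5.48, 5.62 and 5.79 with control siRNA. The NFKB1 siRNA arrays were the lowest, with a difference of -1.18 ± 0.11 from control in the fit with no filter (adjusted p = 3.85e-05).

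Genes for proteins released from mitochondria also split. CYCS, which encodes cytochrome c, measured log2 12.33, 12.32 and 12.36 with double siRNA, 11.62, 11.93 and 11.84 with ETV6 siRNA, 11.70, 11.70 and 11.77 with NFKB1 siRNA and 12.05, 12.05 and 12.12 with control siRNA. It fell by 0.28 ± 0.07 with ETV6 siRNA (adjusted p = 0.0243) and by 0.35 ± 0.07 with NFKB1 siRNA (adjusted p = 0.00202), and rose by 0.26 ± 0.07 with double siRNA (adjusted p = 0.00424). The rise was no longer called when every array was shifted to the same median. DIABLO and HTRA2, whose released proteins block IAPs, fell with double siRNA by 0.40 ± 0.06 and 0.68 ± 0.09 (adjusted p = 6.8e-05 and 2.4e-05). AIFM1, the mitochondrial apoptosis-inducing factor, was not called against control. APAF1, the scaffold of the apoptosome, lay under the filter at the 1.15th percentile of the genes measured, near the bottom of the scale, with 6.94, 6.83 and 6.85 with double siRNA, 5.70, 5.68 and 5.70 with ETV6 siRNA, 4.53, 5.34 and 5.05 with NFKB1 siRNA and 5.11, 5.19 and 5.92 with control siRNA. Its double siRNA arrays were the highest, 1.47 above control.

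**Figure D3:**
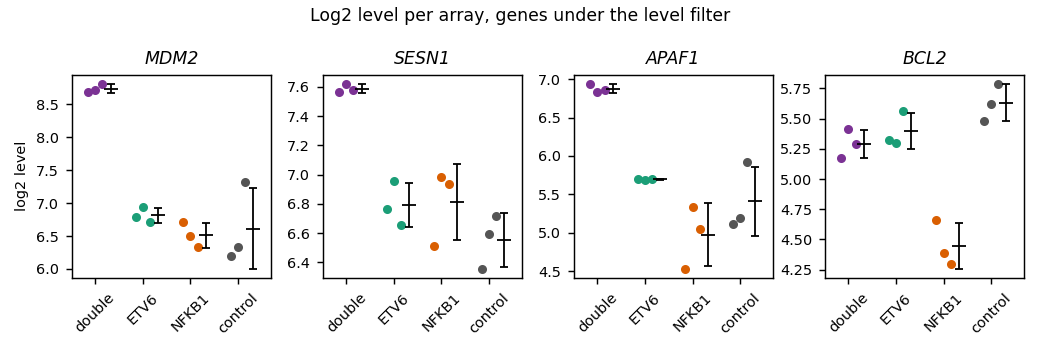
Log2 probe set level on each array for MDM2, SESN1, APAF1 and BCL2, whose means lay under the filter at log2 7.54, by group (double, ETV6, NFKB1 and control siRNA). Points are arrays and bars the mean and SD of 3, and the double siRNA arrays are the highest for MDM2, SESN1 and APAF1 while the NFKB1 siRNA arrays are the lowest for BCL2.

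Among the caspases, CASP9, the initiator that the apoptosome activates, changed in every comparison with control. Its log2 levels were 8.61, 8.60 and 8.63 with double siRNA, 9.19, 9.17 and 9.12 with ETV6 siRNA, 9.35, 9.34 and 9.33 with NFKB1 siRNA and 8.92, 9.07 and 8.67 with control siRNA. CASP9 rose by 0.45 ± 0.08 with NFKB1 siRNA (adjusted p = 0.00101) and by 0.27 ± 0.08 with ETV6 siRNA (adjusted p = 0.048), and fell by 0.27 ± 0.08 with double siRNA (adjusted p = 0.00711). The ETV6 siRNA call was lost in 18 of 23 alternative analyses, and without control replicate 3 its value was 0.17. Without control replicate 2 the fall with double siRNA was 0.18 and was still called. CASP2, an initiator activated in the PIDDosome, fell by 0.53 ± 0.07 with double siRNA. Its rise with NFKB1 siRNA of 0.19 (adjusted p = 0.0467) was lost in 16 of 23 alternatives and was 0.10 without control replicate 3. CASP4, an inflammatory caspase, fell by 0.27 ± 0.06 with double siRNA. CASP6 and CASP8, an executioner and the death receptor initiator, were not called against control (CASP8 0.10 with double siRNA, 95% interval -0.13 to 0.34).

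The 3 tested IAP genes among the members behaved alike in both comparisons: each fell with NFKB1 siRNA and each rose with double siRNA. XIAP, which binds and inhibits caspases directly, measured log2 10.90, 10.84 and 10.78 with double siRNA, 9.41, 9.61 and 9.37 with ETV6 siRNA, 8.99, 8.91 and 8.90 with NFKB1 siRNA and 9.28, 9.33 and 9.92 with control siRNA. BIRC2, a ubiquitin ligase of the tumour necrosis factor receptor complex, measured 11.18, 11.21 and 11.08 with double siRNA, 9.58, 9.80 and 9.66 with ETV6 siRNA, 9.37, 9.29 and 9.36 with NFKB1 siRNA and 9.55, 9.71 and 10.47 with control siRNA. BIRC6, a very large ubiquitin-conjugating IAP, measured 9.98, 9.91 and 9.90 with double siRNA, 9.11, 9.24 and 8.92 with ETV6 siRNA, 8.74, 8.68 and 8.63 with NFKB1 siRNA and 9.27, 9.40 and 9.57 with control siRNA. For all 3 genes the double siRNA arrays lay above, and the NFKB1 siRNA arrays below, every array of the other groups. BIRC5, an IAP family gene outside the member list, went the other way. It averaged log2 10.56 ± 0.06 with double siRNA, 11.09 ± 0.04 with NFKB1 siRNA and 10.86 ± 0.07 with control siRNA (SD, n = 3 each, no test given here).

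With double siRNA, XIAP rose by 1.33 ± 0.14 (2.51-fold, adjusted p = 6.64e-06), BIRC2 by 1.24 ± 0.18 (2.37-fold, adjusted p = 5.89e-05) and BIRC6 by 0.51 ± 0.09 (adjusted p = 0.000216). With NFKB1 siRNA, BIRC6 fell by 0.74 ± 0.09 (adjusted p = 8.59e-05), XIAP by 0.58 ± 0.14 (adjusted p = 0.00633) and BIRC2 by 0.58 ± 0.18 (adjusted p = 0.0239). Control replicate 3 was the highest control array for all 3. Without it the falls were 0.37 for XIAP and 0.30 for BIRC2, both still called. The BIRC2 call was lost without NFKB1 siRNA replicate 1, without replicate 2, and when only the groups compared were fitted. All 4 other probe sets of XIAP and the second one of BIRC6 gave the same directions. With ETV6 siRNA, BIRC6 fell by 0.32 ± 0.09 (adjusted p = 0.0365), a call lost in 12 of 23 alternatives, while XIAP (-0.05) and BIRC2 (-0.23) were not called and, without control replicate 3, had values of the other sign (0.16 and 0.04), not called. Over all genes 25.1% fell with NFKB1 siRNA and 31.9% rose with double siRNA.

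**Figure D4:**
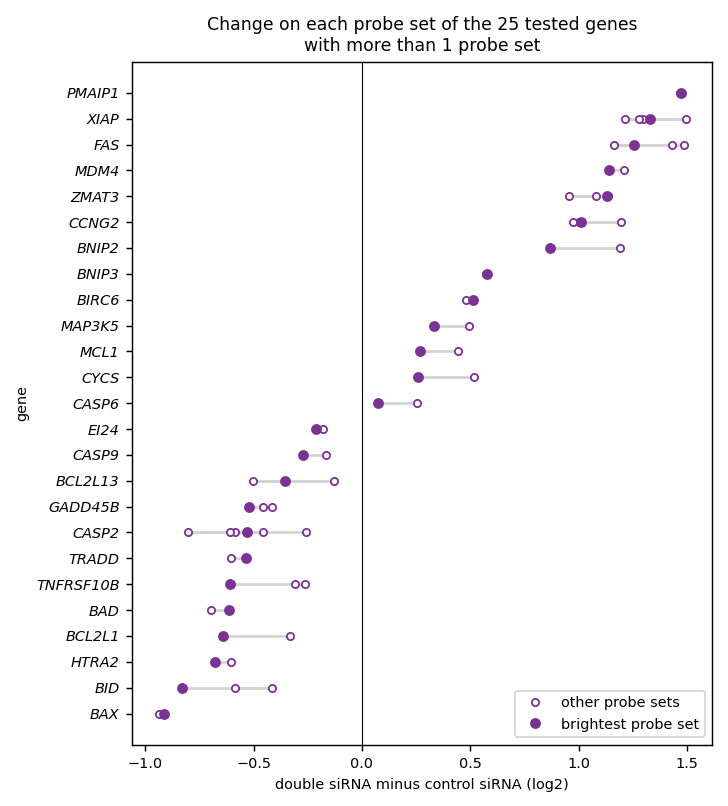
Log2 change, double siRNA minus control siRNA, on every probe set of the 25 tested members with more than 1 probe set. Filled points are the brightest probe set and open points the others; all 41 other probe sets of the 24 called members share the sign of the brightest.

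The effect of NFKB1 siRNA was then compared between cells with and without ETV6 siRNA. Double minus ETV6 siRNA gives the effect with ETV6 siRNA present, NFKB1 minus control siRNA the effect without it, and their difference is the interaction. The 2 effects share no array, but the measured levels of the targets differed between them. ETV6 itself was 1.55-fold higher with double siRNA than with ETV6 siRNA (limma adjusted p = 0.000157). NFKB1 fell 2.40-fold in cells with ETV6 siRNA and 1.66-fold in cells without it. The difference between these falls was not called (interaction -0.53, limma adjusted p = 0.061). With double siRNA NFKB1 had 97.5% of its level with NFKB1 siRNA, not called. Because the ETV6 level differed, the interaction does not compare NFKB1 siRNA at constant target levels. The interaction was called for 40 of 45 members, 20 in each direction, beside 86.3% of all genes (36.5% higher, 49.8% lower), again a share near that of all genes. Against ETV6 siRNA, double siRNA gave 42 calls beside 86.2% of all genes, 20 higher and 22 lower (34.9% and 51.2% of all genes). Against NFKB1 siRNA it gave 40 calls beside 89.1% of all genes, 20 in each direction (37.7% higher and 51.4% lower over all genes). These counts include MDM4, TP53INP1 and FAS, which passed the level filter only through their double siRNA arrays.

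The pattern of XIAP, BIRC2 and BIRC6 was lower with NFKB1 siRNA alone and higher when it was added to ETV6 siRNA. It was shown by 11 members (24.4%), against 18.6% of all genes. They were BIRC2, XIAP, BIRC6, ZMAT3, TP53INP1, BNIP2, PLK2, CYCS, MAP3K5, MCL1 and PPM1D. Of these, TP53INP1 passed the level filter only through its double siRNA arrays. The reverse, higher alone and lower when added to ETV6 siRNA, was shown by CASP9, TP53I3, CASP2 and DDB2, or 8.89% of members against 11.9% of all genes. Both shares were near those of all genes. A further 17 members (37.8%) had no called change with NFKB1 siRNA alone and fell when it was added to ETV6 siRNA, against 36.3% of all genes.

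The highest interactions were those of RRM2B (2.20 ± 0.30, adjusted p = 3.87e-05), BIRC2 (2.05 ± 0.25, 2.14e-05), XIAP (1.95 ± 0.19, 6.96e-06), ZMAT3 (1.89 ± 0.22, 1.68e-05) and BNIP2 (1.77 ± 0.16, 4.93e-06), each with the limma adjusted p as the second value, and of TP53INP1 (1.89, with no test). For BIRC2, NFKB1 siRNA changed the level by 1.48 in cells with ETV6 siRNA and by -0.58 in cells without it. For PLK2 the values were 0.17 with and -0.82 without ETV6 siRNA. The lowest interactions were those of CASP9 (-1.0 ± 0.11), BAK1 (-0.85 ± 0.16), BCL2L1 (-0.82 ± 0.14), TP53I3 (-0.81 ± 0.08), CASP2 (-0.81 ± 0.10) and TNFRSF1A (-0.73 ± 0.12), with adjusted p from 5.67e-06 for TP53I3 to 0.000307 for BAK1. CASP9 changed by -0.55 with and by 0.45 without ETV6 siRNA. GADD45A, BCL2L2, BCL2L11, CASP4 and CASP8 had no called interaction. On the second probe set of BNIP3 the interaction was at 0.00, against 0.32 on the brightest, and had the opposite sign.

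**Figure D5:**
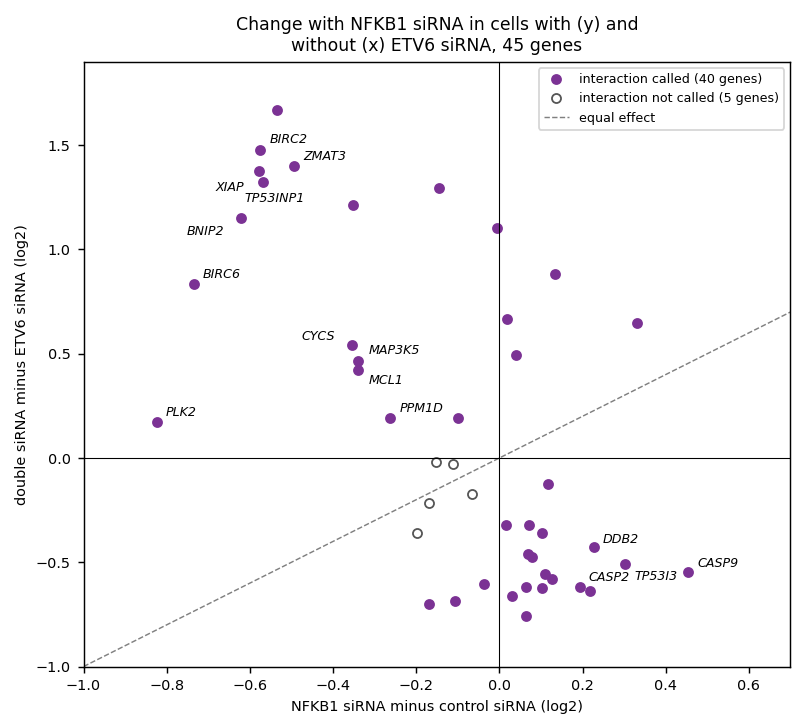
Log2 change with NFKB1 siRNA in cells with ETV6 siRNA (double minus ETV6 siRNA, vertical) against the change in cells without it (NFKB1 minus control siRNA, horizontal) for 45 members. Filled points are the 40 with a called interaction, among them MDM4, TP53INP1 and FAS, which passed the level filter only through double siRNA. The dashed line marks equal effects, and the 11 named genes at the upper left fell without and rose with ETV6 siRNA.

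Between the single knock-downs, 11 members differed, 9 higher and 2 lower with ETV6 siRNA than with NFKB1 siRNA, beside 34.9% of all genes (21.8% higher, 13.1% lower). The same scalings gave 6 higher of 15 and 6 higher of 13. The highest was PLK2 (0.75 ± 0.05, adjusted p = 2.03e-06), with log2 10.65, 10.74 and 10.66 in ETV6 siRNA arrays and 9.89, 9.95 and 9.96 in NFKB1 siRNA arrays. XIAP (0.53 ± 0.14), BIRC6 (0.41 ± 0.09) and GADD45A (0.41 ± 0.05) were also higher with ETV6 siRNA. BNIP3 (-0.40 ± 0.07) and DDB2 (-0.28 ± 0.08) were lower. This count ranged from 6 to 22 when single arrays were left out, with 22 without control replicate 3, 6 without ETV6 siRNA replicate 2, and 7 without ETV6 siRNA replicate 3 or NFKB1 siRNA replicate 1.

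Other genes of the same pathways, 48 tested genes outside the list above, gave 35 calls with double siRNA (11 higher, 24 lower), 20 with NFKB1 siRNA (7 higher, 13 lower) and 6 with ETV6 siRNA (2 higher, 4 lower), beside 80.9%, 40.6% and 10.7% of all genes. Of 18 other p53 targets and p53 relatives, 1 rose with double siRNA, the sestrin gene SESN3 (1.53 ± 0.12), and 12 fell, beside 31.9% and 49% of all genes. Among the 12 were PML (-0.74), TP53I13 (-0.72) and STEAP3 (-0.59). With NFKB1 siRNA, IGFBP3, a p53-induced binding protein of insulin-like growth factors, rose by 0.58 ± 0.07 and THBS1, the angiogenesis inhibitor thrombospondin, fell by 0.45. With ETV6 siRNA, the stress gene SESN2 rose by 0.43 ± 0.10 and PCNA, the sliding clamp of DNA replication, fell by 0.36. Of 16 other apoptosis genes, 4 rose and 8 fell with double siRNA, beside the same shares of all genes. BNIP3L, the paralog of BNIP3, measured log2 11.94, 11.89 and 11.99 with double siRNA, against 9.93, 10.14 and 10.82 with control siRNA, and rose by 1.64 ± 0.17, and BCLAF1 rose by 0.97 ± 0.16. The FAS-binding protein DAXX fell by 0.61 and the chaperone regulator BAG3 by 0.46. With NFKB1 siRNA, BCLAF1 fell by 0.61 and the endonuclease gene ENDOG rose by 0.44. Control replicate 3 was the highest control array for BCLAF1 (log2 11.11, against 10.47 and 10.52). For ENDOG it was the lowest (8.52, against 8.59 and 8.64).

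Of 14 kinases and cofactors upstream of p53, 8 fell and 1 rose with NFKB1 siRNA, beside 25.1% and 15.5% of all genes. The checkpoint kinase CHEK1 measured log2 9.34, 9.47 and 9.32 with double siRNA, 8.85, 8.87 and 8.57 with ETV6 siRNA, 8.55, 8.56 and 8.32 with NFKB1 siRNA and 9.31, 9.30 and 9.47 with control siRNA. CHEK1 fell by 0.88 ± 0.09 with NFKB1 siRNA (adjusted p = 3.77e-05) and by 0.60 ± 0.09 with ETV6 siRNA (adjusted p = 0.0028), and its double siRNA and control arrays overlapped. The damage kinases PRKDC and ATR fell by 0.79 and 0.78 with NFKB1 siRNA. Control replicate 3 was the highest control array for ATR (log2 8.71, against 7.99 and 8.14). For PRKDC it was the lowest (11.21, against 11.36 and 11.25). Changes without it are not given for these genes. With double siRNA 6 of the 14 rose and 4 fell, beside 31.9% and 49% of all genes, with ATR at 1.01 ± 0.16, the p53 ubiquitin ligase COP1 at 0.64 ± 0.07 and the acetyltransferase genes KAT5 and CREBBP at -0.50 and -0.49.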

How the data were processed

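Total RNA of 12 U251 samples was hybridized to Affymetrix GeneChip expression arrays, 1 per sample, in 4 siRNA groups of 3. The authors deposited 1 log2 level for each probe set and array. Background correction, summarization and normalization are not given in the sources used here, so probe set levels are compared between arrays and not between genes. The precision is limited by the 3 arrays per group. No 2 arrays held identical values (0 pairs).

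Of 19520 probe sets, 17313 named 1 gene in the platform's probe table, 857 several and 1293 none, beside 57 control probe sets. The brightest probe set stood for each of 10346 genes. The level filter was the 25th percentile of gene means (log2 7.54). It did not apply to ETV6 and NFKB1, and 7760 genes passed. The members and gene lists were chosen with earlier results of these data known. Group means over the 12 arrays were estimated in a single linear model (limma 3.58.1 under R 4.3.3, with empirical Bayes moderation, 8 residual and 3.41 prior degrees of freedom). The code was run on simulated data with independent noise and few changed genes. That setting is unlike these arrays and does not test the model for them. The model gave 7 comparisons, with two-sided p-values adjusted by Benjamini and Hochberg over all 7760 genes. An exact permutation test of 3 against 3 cannot give a p below 0.1 and was not used. Intervals are 95% and errors of changes are SE. Full values were given for the 6 highest and 6 lowest called members of each comparison with control and of the interaction, and up to 3 in each direction were named per pathway list. ETV6 and NFKB1 were always named.

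Alternatives were 2 scalings, 2 filters, 2 ways of using several probe sets, array weights, trended robust variances, a replicate block, a fit of only the groups compared, and leaving out arrays. Promoter windows came from RefSeq (GRCh38.p14).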

Additional observations from a re-analysis of the deposited data

Results flagged for a closer look

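The effect of NFKB1 siRNA differed between cells with and without ETV6 siRNA, and lay in opposite directions past the threshold in both, for 15 of the 45 members. The interaction, the difference between the effects with and without ETV6 siRNA, was 2.05 for BIRC2, 1.95 for XIAP, 1.89 for ZMAT3, 1.89 for TP53INP1, 1.77 for BNIP2 and 1.57 for BIRC6 on the log2 scale. It was 1.00 for PLK2, 0.89 for CYCS, 0.80 for MAP3K5, 0.76 for MCL1 and 0.46 for PPM1D. On the negative side it was -0.65 for DDB2, -0.81 for CASP2, -0.81 for TP53I3 and -1.0 for CASP9. Because opposite calls chose the 15, a called interaction follows almost from the choice, and the values are a description. TP53INP1, 1 of the 15, passed the level filter only through its double siRNA arrays. Opposite directions were shown by 24.4% and 8.89% of the members, against 18.6% and 11.9% of all genes. The array median, poly-A, ACTB and control replicate 3 values given for the double siRNA arrays stand beside all 15, and their part was not tested. The same holds for the differences in ETV6 and NFKB1 level given with the interaction. For PPM1D the rise against ETV6 siRNA was lost under both scalings, and for PLK2 when every array was shifted to the same median. The call with NFKB1 siRNA alone was lost for CASP2 in 16 of 23 alternatives, for ZMAT3 in 6 of 23, for DDB2 in 6 of 22, for BIRC2 in 3 of 23 and for TP53INP1 in 1 of 22.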

How the results depend on the processing

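The counts of members called with NFKB1 siRNA and double siRNA against control, with double siRNA against each single siRNA and in the interaction stayed within 1.5 times of the values given under all 23 alternatives (22 for the interaction, for which the fit of only the groups compared was not run), and no call of any comparison turned its direction. With ETV6 siRNA against control, 5 members were called. The count was 3 after shifting every array to the same median, 3 with no filter, 15 with array weights and 0 when only the groups compared were fitted, where 2.41% of all genes were called. It ranged from 0 to 7 when arrays were left out, with 0 without ETV6 siRNA replicate 1. For ETV6 against NFKB1 siRNA the count of 11 became 25 with array weights and 19 when only the groups compared were fitted, and ranged from 6 to 22 when arrays were left out. Leaving out arrays gave 14 to 19 calls for NFKB1 siRNA and 38 to 40 for double siRNA against control. It gave 40 to 42 for double against ETV6 siRNA, 38 to 41 for double against NFKB1 siRNA and 38 to 40 for the interaction. The cause of these differences was not tested.

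Scaling moved the balance of calls. The median of all genes with double siRNA was -0.24 after the median shift and -0.19 after quantile normalization, against -0.13 as deposited. With NFKB1 siRNA 5 of 17 called members were higher as deposited, against 9 of 20 and 9 of 21 under these scalings, and the share of higher calls over all genes was 38.1% as deposited, against 62.2% and 57.5%. For ETV6 against NFKB1 siRNA, 9 of 11 calls were higher as deposited, against 6 of 15 and 6 of 13.

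The replicate numbers did not pair the arrays: deviations of same-numbered arrays correlated between -0.52 and 0.48. The highest correlation, 0.64, was between control replicate 3 and ETV6 siRNA replicate 2, whose numbers differ. Without both arrays GADD45A and CASP9 were not called with ETV6 siRNA, and BID was. With the number as a replicate block the calls were 4 for ETV6, 16 for NFKB1 and 39 for double siRNA against control, 42 for double against ETV6 siRNA, 41 for double against NFKB1 siRNA, 13 for ETV6 against NFKB1 siRNA and 41 for the interaction.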
